A study of Homo sapiens with 3 samples.

Results

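The sestrins SESN1, SESN2 and SESN3, the forkhead transcription factors FOXO3 and FOXO4, and 5 stress-responsive genes, TXNIP, CITED2, GADD45A, DDIT4 and TP53INP1, were followed in SupB15-MR cells against SupB15 cells. These 10 genes are among 19775 with a probe set of their own on the arrays. Every probe set that the annotation assigned to one of them alone was taken, 26 in all. Another 3 probe sets, shared between FOXO3 and its near-identical copy FOXO3B, were not used. SupB15 is an established human B-precursor acute lymphoblastic leukemia line. SupB15-MR is its multidrug resistant derivative, obtained by mitoxantrone treatment in medium conditioned by the bone marrow stromal line HS-5, followed by drug-free culture. Gene expression was measured in SupB15-MR cells, labelled multiple drug resistant (2 arrays, called biological replicates, the second also described as MR5), and in SupB15 cells, labelled drug sensitive (1 array). The study speaks of its SupB15-MR lines as clones. All cells were cultured in normal RPMI1640 medium with serum.

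FOXO factors switch on genes of stress defence, cell cycle arrest and cell death when they enter the nucleus, and AKT phosphorylation keeps them in the cytoplasm. Sestrins are stress-induced proteins that restrain the growth kinase complex mTORC1, partly through AMP-activated protein kinase, and help to regenerate antioxidant peroxiredoxins. SESN3 is a known FOXO target, and SESN2 is a target of the stress factor ATF4. In precursor B cells, FOXO1 drives the recombination-activating genes RAG1 and RAG2.

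The values are log2 expression values summarised by RMA, so that a difference of 1 is a 2-fold change. Differences are given as SupB15-MR minus SupB15. A probe set was called when limma gave an adjusted p of at most 0.05 and the fold change was at least 2. Because SupB15 had 1 array, its own spread was not measured. The p-values rest on gaps between the 2 SupB15-MR arrays, which may be technical. These are the gap of the probe set itself and those of other probe sets, which limma pools as a variance prior. Where the 2 SupB15-MR values are identical, the p-value rests on that prior alone. Every one of the 16476 kept probe sets at least 2-fold apart by the mean passed the p threshold, so that a call adds little to the fold change. An exact permutation test of any one probe set has 3 splits of the arrays and cannot give a p below 0.333.

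Among the 10 genes, SESN3 and 1 FOXO3 probe set rose in SupB15-MR, SESN2 fell, and most probe sets of CITED2 fell. TXNIP and TP53INP1 had probe sets called in both directions. SESN1, FOXO4, GADD45A and DDIT4 had no called probe set. Of the 25 probe sets above the filter on low values, 6 were called higher, on 4 genes, and 6 lower, on 4 genes, 24.0% each way, and 13 were not called. Over all 46034 probe sets tested, 19.6% were called higher and 16.2% lower, so that the share of calls among these genes stood near the background. Counted without a test, 5 probe sets were 2-fold or more higher in each SupB15-MR array and 5 were lower, where 18.3% and 15% of all probe sets were so. The median size of the difference, either way, was 0.99 for these genes and 0.65 for all probe sets, and both signed medians were 0.0. With the variance prior of limma taken from all probe sets, 3 were called higher and 3 lower, all 6 of them among the 12 above, against a background of 13.1% and 9.71%.

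**Figure D1:**
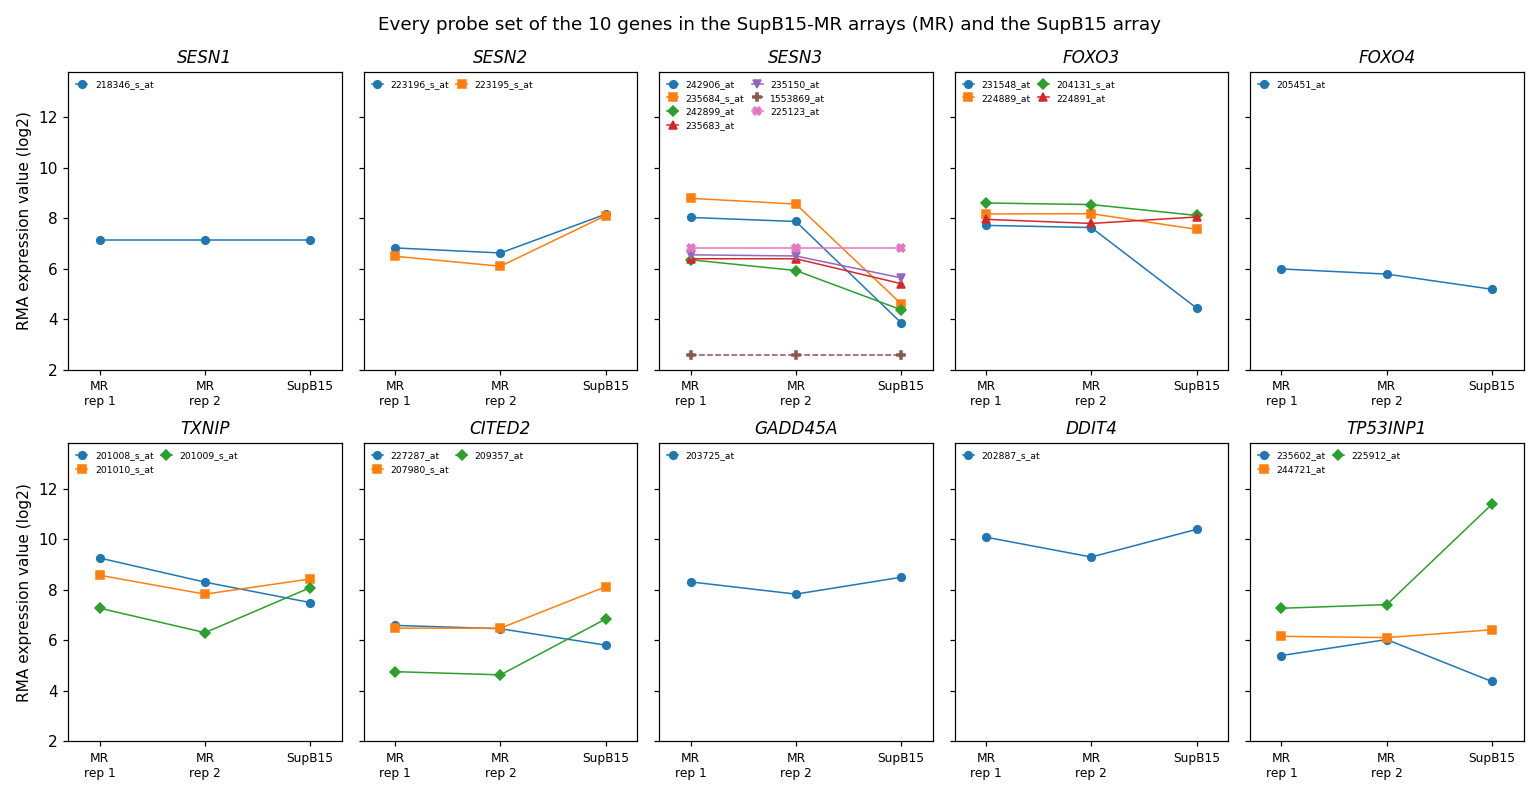
RMA expression values (log2, y axis) of all 26 probe sets of the 10 genes in the 2 SupB15-MR arrays (MR rep 1 and MR rep 2) and the SupB15 array (x axis), with 1 line for each probe set and a dashed line for the SESN3 probe set removed as low. SESN3 probe sets 242906_at and 235684_s_at and FOXO3 probe set 231548_at lie low only in SupB15, and TP53INP1 probe set 225912_at lies high only in SupB15.

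The arrays differed as wholes as well. The array medians were 5.27 and 5.28 in SupB15-MR and 5.08 in SupB15, a shift of 0.19 that no value here is corrected for. Values were identical in both SupB15-MR arrays for 42.7% of the 54675 probe sets and in all 3 arrays for 13.7%, and 5 and 3 of the 26 probe sets of these genes were among them. RMA fits each probe set over all arrays by medians, which can return equal values with so few arrays; its part in these values was not tested. Probe sets for 18S ribosomal RNA read 13.97 and 13.92 in SupB15-MR and 6.49 in SupB15. The added poly(A) spikes were higher in both SupB15-MR arrays, by 1.69 and 1.82, and so were the hybridization spikes, by 2.82 and 2.33. The 3' minus 5' difference of ACTB, which grows as RNA breaks, was 2.58 and 2.43 in SupB15-MR and 0.80 in SupB15, while that of GAPDH was -0.09 and -0.11 in SupB15-MR and 0.10 in SupB15. The 15 markers of precursor B cells averaged 9.79 and 9.67 in SupB15-MR and 10.7 in SupB15, with 3 called higher and 6 lower. Their median difference was -0.08. Stromal markers averaged 4.98 in both SupB15-MR arrays and 5.72 in SupB15 (12 tested, 1 called higher and 5 lower). T cell markers averaged 4.27 and 4.28 in SupB15-MR and 5.11 in SupB15 (7 tested, 2 called lower), and myeloid markers 4.98 and 4.73 in SupB15-MR and 4.64 in SupB15 (6 tested, 2 called higher and 1 lower). The part of these differences in the results was not tested. In such bulk samples, fewer cells of a type and less RNA per cell cannot be told apart.

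SESN3 had the largest rises among the 10 genes. Its probe set 242906_at read 8.03 and 7.87 in SupB15-MR and 3.86 in SupB15. The SupB15 value lies near the filter at 3.47, so that the size of this rise is uncertain. The difference of 4.09 (standard error, SE, 0.204; limma adjusted p = 5.55e-12) was 17.0-fold, and 1.58% of all probe sets tested differed by as much. Probe set 235684_s_at read 8.79 and 8.56 in SupB15-MR and 4.61 in SupB15, a difference of 4.06 (SE 0.206, limma adjusted p = 7.1e-12). In both, the SupB15-MR arrays lay close together and far above SupB15, and both calls were kept with the prior from all probe sets (adjusted p = 0.0178 and 0.0258 from limma). Another probe set of SESN3, 242899_at, read 6.36 and 5.93 in SupB15-MR and 4.38 in SupB15. Its difference of 1.76 was called (adjusted p = 1.19e-06 from limma) but not with the prior from all probe sets (adjusted p = 0.111). The other probe sets of the gene moved less or not at all. Probe set 235683_at read 6.40 in both SupB15-MR arrays and 5.41 in SupB15, and 235150_at read 6.55 and 6.51 in SupB15-MR and 5.64 in SupB15. Both were higher in SupB15-MR by a little less than 2-fold, 1.98-fold and 1.85-fold, and so were not called. Probe set 225123_at read 6.82 in all 3 arrays, and 1553869_at read 2.58 in all 3 and was removed by the filter at 3.47. Of the 7 SESN3 probe sets, 5 thus lay higher in both SupB15-MR arrays than in SupB15, by 0.89 to 4.09, and none lay lower. A single value for SESN3 depends on the probe set: the brightest by the average of the group means, 225123_at, gave 0.0, and the mean over the 6 kept probe sets was 1.97.

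SESN2 went the other way. Probe set 223196_s_at read 6.83 and 6.63 in SupB15-MR and 8.16 in SupB15, a log2 fold change of -1.44 (SE 0.205, limma adjusted p = 6.64e-06). Probe set 223195_s_at read 6.50 and 6.10 in SupB15-MR and 8.11 in SupB15, a log2 fold change of -1.81 (SE 0.217, limma adjusted p = 7.62e-07). Both probe sets of SESN2 fell, 2.71-fold and 3.50-fold, and every SupB15-MR value lay more than 2-fold below SupB15. Neither was called with the prior from all probe sets (adjusted p = 0.0642 and 0.101 from limma). SESN1, the remaining sestrin, had 1 probe set, with the value 7.12 in all 3 arrays. The 3 sestrins thus gave a rise, a fall and no measured difference, on probe sets of different genes whose levels cannot be set against each other.

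To show what lies upstream of the sestrins that moved, the 250 bases before the start of SESN3 (chr11:95232476-95232725, minus strand) and SESN2 (chr1:28259268-28259517, plus strand) are printed from RefSeq on GRCh38.p14, read 5′ to 3′ towards the gene. Capitals mark GTAAACA, the core that FOXO factors bind, and CCAAT, the CCAAT box, on either strand (ATTGG is a CCAAT box on the opposite strand).
SESN3: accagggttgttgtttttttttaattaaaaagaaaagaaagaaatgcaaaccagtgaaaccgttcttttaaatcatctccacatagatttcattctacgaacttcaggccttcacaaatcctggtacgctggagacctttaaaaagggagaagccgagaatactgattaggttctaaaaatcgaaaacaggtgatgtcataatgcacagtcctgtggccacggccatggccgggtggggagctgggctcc
SESN2: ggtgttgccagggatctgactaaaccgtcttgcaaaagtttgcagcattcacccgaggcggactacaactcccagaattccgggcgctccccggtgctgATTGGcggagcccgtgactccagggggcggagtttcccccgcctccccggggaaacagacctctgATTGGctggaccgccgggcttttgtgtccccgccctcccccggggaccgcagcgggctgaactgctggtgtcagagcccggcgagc
The SESN3 window holds neither motif. The SESN2 window holds 2 CCAAT boxes, at positions -151 to -147 and -86 to -82 from the start, and no GTAAACA. Windows were found for 8 of the 10 genes, all but GADD45A and TP53INP1, 16 windows in all. GTAAACA was in 1 of these 16 and in 2.98% of 35116 windows of the same length, and CCAAT was in 5 of 16 and in 32% of all. The E-box CACGTG was in 1 of 16, a window of CITED2 (6.34% of all). TATAAA, the TATA box, and TGATGNAAN, the element bound by ATF4 with a CEBP partner, were in none of the 16 (10.7% and 3.13% of all). All 5 motifs were searched on both strands, and the motifs do not share letters at any of these matches. A match is a run of letters and not a measured binding site.

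Among the FOXO factors, FOXO3 had 1 probe set that rose and 3 that were not called. Probe set 231548_at read 7.72 and 7.63 in SupB15-MR and 4.45 in SupB15. Its difference of 3.23 (SE 0.202, limma adjusted p = 1.21e-10) was 9.38-fold, and 3.77% of all probe sets tested differed by as much. It was also called with the prior from all probe sets (adjusted p = 0.0118 from limma). The other FOXO3 probe sets stayed within 2-fold of SupB15. Probe set 224889_at read 8.17 and 8.18 in SupB15-MR and 7.57 in SupB15, a difference of 0.61. Probe set 204131_s_at read 8.61 and 8.54 in SupB15-MR and 8.11 in SupB15, a difference of 0.46. The last, 224891_at, read 7.96 and 7.80 in SupB15-MR and 8.05 in SupB15, a difference of -0.17 (adjusted p = 0.529 from limma). FOXO3 is thus 9.38-fold higher by 1 probe set and within 1.53-fold by the other 3. Where the probes of each set lie in the FOXO3 transcripts was not analysed here.

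FOXO4, a close relative on the X chromosome, read 5.99 and 5.79 in SupB15-MR and 5.19 in SupB15 on its only probe set. The difference of 0.70 (SE 0.205, limma adjusted p = 0.00635) passed the p threshold and stayed under 2-fold. FOXO1, the main FOXO factor of precursor B cells, read 10.30 and 10.07 in SupB15-MR and 9.24 in SupB15 on its brightest probe set, a difference of 0.94 that was also under 2-fold. Its other probe sets went both ways, 1 higher and 1 lower by 2-fold or more. FOXO6, on its only probe set, read 8.18 in both SupB15-MR arrays and 6.39 in SupB15 and was called higher (1.79, adjusted p = 3.27e-07 from limma). With no gap between the SupB15-MR arrays, its p rests on the prior alone. The probe sets that represent FOXO1, FOXO4 and FOXO6, and 3 of the 4 of FOXO3, lay above SupB15 in both SupB15-MR arrays. The remaining FOXO3 probe set lay below it, as did 1 of FOXO1 by the mean, so that not all FOXO probe sets shared a direction. How many of all probe sets lay above SupB15 in this way was not counted. The SupB15-MR array medians were also higher by 0.19. With the arrays centred on their medians, FOXO4 differed by 0.51 and FOXO3 probe set 204131_s_at by 0.27.

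**Figure D2:**
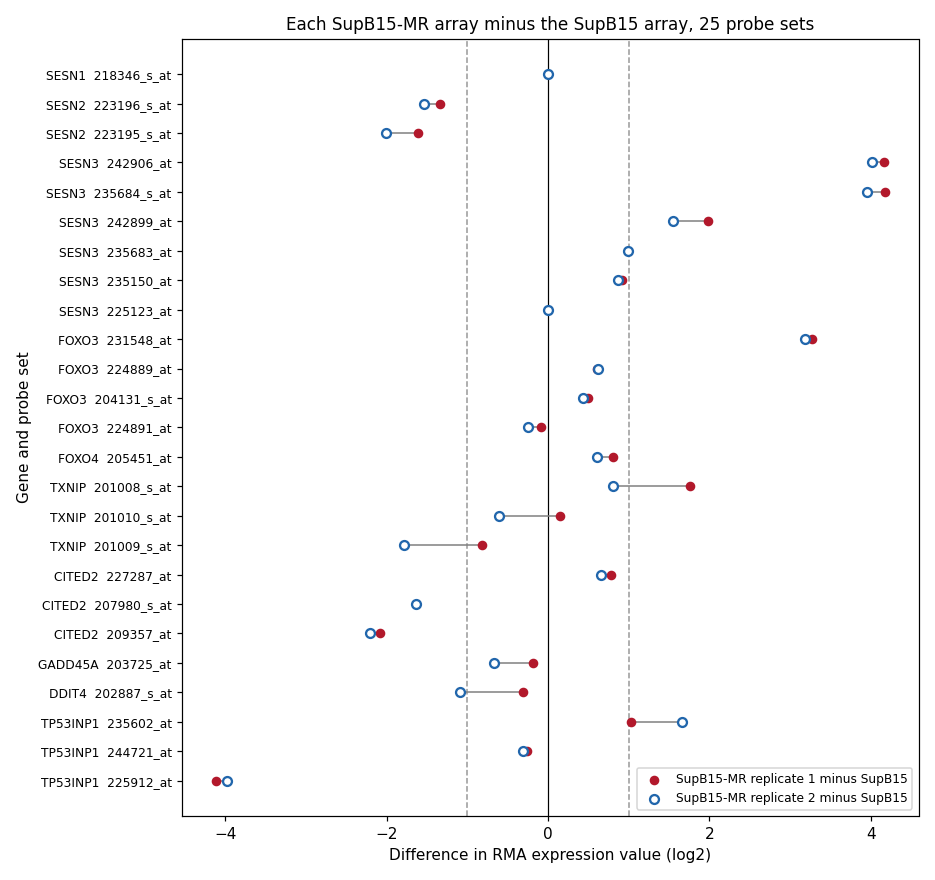
Log2 difference of SupB15-MR replicate 1 (filled) and replicate 2 (open) from SupB15 (x axis) for the 25 probe sets above the filter (y axis), with dashed lines at a 2-fold difference either way. The SESN3, FOXO3 and TP53INP1 probe sets with the largest differences show both arrays close together, whereas the 3 TXNIP probe sets spread widely between the arrays and on both sides of 0.

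TXNIP, which binds and inhibits thioredoxin and restrains glucose uptake, gave 3 probe sets with 3 answers. Probe set 201008_s_at read 9.25 and 8.29 in SupB15-MR and 7.48 in SupB15, a difference of 1.29 (SE 0.280, limma adjusted p = 0.000586). Probe set 201009_s_at read 7.26 and 6.29 in SupB15-MR and 8.08 in SupB15, a difference of -1.30 (SE 0.281, limma adjusted p = 0.00056). Probe set 201010_s_at read 8.57 and 7.82 in SupB15-MR and 8.42 in SupB15, so that the SupB15 value lay between the SupB15-MR values. TXNIP was therefore called higher on one probe set and lower on another by nearly the same factor, 2.44-fold and 2.46-fold. Neither call was 2-fold in both SupB15-MR arrays, and neither held with the prior from all probe sets (adjusted p = 0.35 from limma for each). The mean difference over the 3 probe sets was -0.08. No direction can be given for TXNIP.

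What the TXNIP probe sets shared was a gap between the SupB15-MR arrays. All 3 were lower in SupB15-MR replicate 2 than in replicate 1, by differences of -0.96, -0.75 and -0.97, and at most 0.68% of all probe sets tested had a difference as low as any of them. DDIT4, also called REDD1, an inhibitor of mTORC1 that low oxygen and stress hormones induce, showed the same gap. It read 10.07 and 9.29 in SupB15-MR and 10.38 in SupB15, a difference of -0.79 between replicate 2 and replicate 1. GADD45A, a growth arrest gene induced by DNA damage, read 8.30 and 7.82 in SupB15-MR and 8.49 in SupB15, a difference of -0.48 between the SupB15-MR arrays. In all, 4 probe sets of 2 genes, TXNIP and DDIT4, were lower in replicate 2 by at least 0.5, a size chosen after the values were seen, and 1, of TP53INP1, was higher by as much. Over all probe sets tested, 2.13% were lower and 2.98% higher by at least 0.5. The shares over all probe sets tested include the 18289 with identical SupB15-MR values, which have no gap. No test was made, because each replicate is 1 array. The hybridization spikes, added at fixed amounts, were higher in both SupB15-MR arrays than in SupB15, as given above, and lower in replicate 2 than in replicate 1, with a median difference of -0.56; their part in the gap was not tested.

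Against SupB15, DDIT4 had a mean difference of -0.70 (SE 0.257, limma adjusted p = 0.0249) and GADD45A one of -0.43 (SE 0.224, limma adjusted p = 0.117). Neither was called. In DDIT4 the fold depended on the array, with differences of -0.31 in replicate 1 and -1.10 in replicate 2. The windows before the starts of TXNIP (chr1:145996580-145996829, minus strand) and DDIT4 (chr10:72273674-72273923, plus strand), the genes with the widest gap between the SupB15-MR arrays, are shown with the same capitals.
TXNIP: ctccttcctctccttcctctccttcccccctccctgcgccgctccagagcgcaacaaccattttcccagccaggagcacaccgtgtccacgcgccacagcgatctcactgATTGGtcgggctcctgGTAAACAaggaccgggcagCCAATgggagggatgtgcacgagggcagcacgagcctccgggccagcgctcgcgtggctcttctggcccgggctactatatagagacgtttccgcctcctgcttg
DDIT4: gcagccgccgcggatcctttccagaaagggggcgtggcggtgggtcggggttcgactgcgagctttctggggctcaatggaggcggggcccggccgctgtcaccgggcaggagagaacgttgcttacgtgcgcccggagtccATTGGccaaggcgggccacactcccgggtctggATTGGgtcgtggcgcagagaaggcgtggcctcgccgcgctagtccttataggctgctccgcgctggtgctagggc
Of the 8 genes with a window, only TXNIP has GTAAACA in one, at positions -124 to -118. That window holds CCAAT boxes at -140 to -136 and -105 to -101. The second TXNIP window holds neither motif. DDIT4 holds CCAAT boxes at -108 to -104 and -75 to -71.

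**Figure D3:**
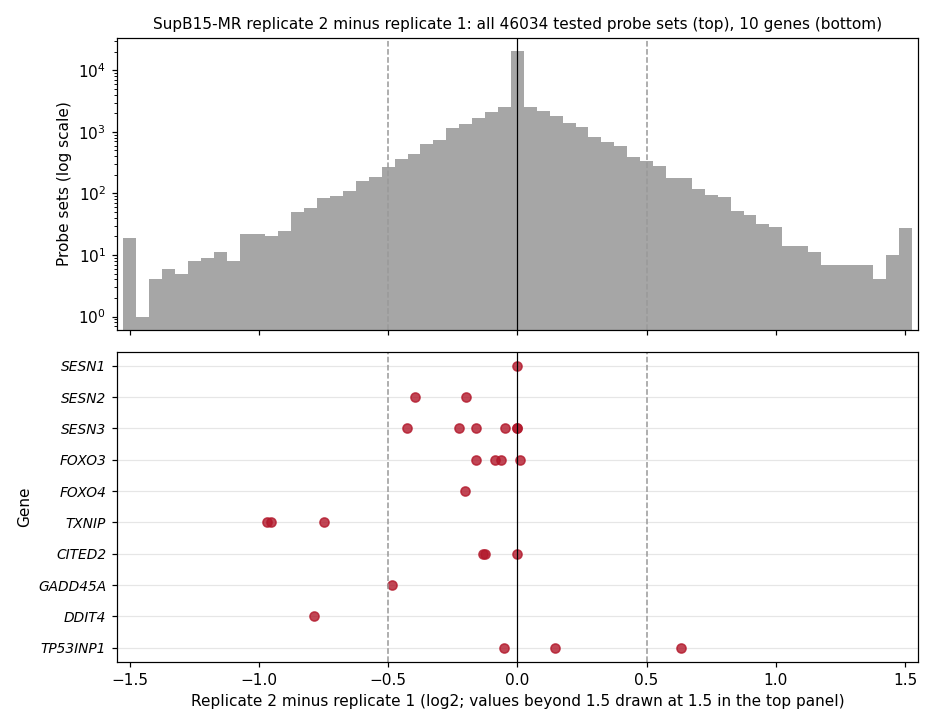
SupB15-MR replicate 2 minus replicate 1 (log2, x axis), as a histogram of the 46034 probe sets tested on a log scale (top, with identical values in the bar at 0) and as 1 point for each probe set of the 10 genes (bottom), with dashed lines at 0.5 either way. The 3 TXNIP points, from -0.97 to -0.75, and the DDIT4 point at -0.79 lie left of the dashed line, and 1 TP53INP1 point, at 0.63, lies right of it.

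CITED2, which limits the hypoxia factor HIF1A by competing for its coactivators CREBBP and EP300, fell on 2 of its 3 probe sets. Probe set 209357_at read 4.75 and 4.62 in SupB15-MR and 6.83 in SupB15, a log2 fold change of -2.15 (SE 0.203, limma adjusted p = 3.29e-08). Probe set 207980_s_at read 6.47 in both SupB15-MR arrays and 8.11 in SupB15, a log2 fold change of -1.64 (SE 0.201, limma adjusted p = 9.96e-07). Both calls, of 4.44-fold and 3.12-fold falls, were kept with the prior from all probe sets (adjusted p = 0.0273 and 0.000645 from limma); the second has no gap between the SupB15-MR arrays, so that its p rests on the prior alone. The last, 227287_at, read 6.58 and 6.45 in SupB15-MR and 5.80 in SupB15, a difference of 0.72 in the other direction and under 2-fold.

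TP53INP1, a stress-induced protein that takes part in cell death and autophagy, held the probe set with the largest fall among the 10 genes. Its probe set 225912_at read 7.26 and 7.40 in SupB15-MR and 11.38 in SupB15. The log2 fold change of -4.05 (SE 0.203, limma adjusted p = 6.15e-12) was a 16.5-fold fall, and 1.65% of all probe sets tested differed by as much. This call was kept with the prior from all probe sets (adjusted p = 0.0162 from limma). Another probe set, 235602_at, read 5.39 and 6.02 in SupB15-MR and 4.36 in SupB15 and was called higher by 1.34 (adjusted p = 7.75e-05 from limma), but not with the prior from all probe sets (adjusted p = 0.221). Probe set 244721_at read 6.15 and 6.10 in SupB15-MR and 6.41 in SupB15 and was not called. The mean over the 3 probe sets was -0.997. All 12 called differences of these genes, in either direction, were larger than the gap between the SupB15-MR arrays. This count adds nothing to the calls. A call needs a difference of at least 1, and the widest gap among these probe sets was -0.97, in TXNIP. Of the 6 genes with more than 1 probe set, TXNIP and TP53INP1 were called both ways.

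Genes around these 10 were taken from 5 lists, each gene by the probe set with the highest average of the group means. Of all 17544 genes tested in this way, 15.8% were called higher and 16.3% lower, with a median log2 fold change of 0.0. Of 11 paralogs tested, 3 were called higher and 2 lower, with a median of 0.66. The rises included ARRDC1, an arrestin-like relative of TXNIP (2.97), whose other probe set was at least 2-fold lower and whose mean over both was 0.35. CITED4, a relative of CITED2, and DDIT4L, a relative of DDIT4, had log2 fold changes of -1.68 and -1.52.

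Sestrin partners act in the GATOR complexes, through which amino acids signal to mTORC1, and in AMP-activated protein kinase. Of 21 tested, 4 were called higher, 3 lower and 14 were not called, with a median of 0.03. PRKAA1, a catalytic subunit of AMP-activated protein kinase, was called higher by 1.86 and PRKAB1, a regulatory subunit, by 1.24, on the probe set that represents each. Each had another probe set at least 2-fold lower, and the means over their kept probe sets were -0.28 for PRKAA1 and 0.01 for PRKAB1, so that neither gene has a settled direction. NPRL2, a GATOR1 subunit that represses mTORC1, and SQSTM1, an autophagy receptor that works with sestrins on KEAP1, had log2 fold changes of -1.38 and -1.51. Of the kept probe sets, 1 of 2 for NPRL2 and 2 of 5 for SQSTM1 were lower by 2-fold or more, and their means were -0.89 and -0.55.

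Of 20 FOXO regulators tested, 4 were called higher and 4 lower, with a median of -0.08. SGK1, a kinase that phosphorylates FOXO3 at sites AKT also uses, read 9.08 and 7.72 in SupB15-MR and 5.29 in SupB15. It rose by 3.11 (SE 0.342, limma adjusted p = 2.48e-07), with a gap between the SupB15-MR arrays in the same direction as that of TXNIP. STK4, the kinase MST1 that phosphorylates FOXO factors under oxidative stress, rose by 2.84 on its brightest probe set; 3 of 7 STK4 probe sets were higher by 2-fold or more and 1 was lower by as much, with a mean of 0.98. IKBKB, an inhibitory kinase of FOXO3, and PRMT1, which methylates FOXO1, had log2 fold changes of -1.72 and -1.87, with 1 of the 2 PRMT1 probe sets at least 2-fold higher. The means over all their probe sets were -0.64 and -0.37.

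Known FOXO targets went both ways. Of 26 tested, 5 were called higher, 4 lower and 17 were not called, with a median of 0.0. SOD2, mitochondrial manganese superoxide dismutase, rose by 3.63 on the only probe set assigned to it alone. RAG2 read 10.52 and 10.45 in SupB15-MR and 7.16 in SupB15 and rose by 3.32. The 15 B-precursor markers, among which RAG1 and RAG2 also count, averaged lower in SupB15-MR, but their median difference was -0.08. Of them, 3 were called higher and 6 lower, with the largest falls in VPREB1 (-6.41) and CD34 (-6.38). In SupB15-MR, CD34 read 3.82 and 3.46, the second below the filter at 3.47, and VPREB1 read 4.22 and 3.94, near it. The sizes of both falls are thus uncertain. CDKN1B, which encodes the cell cycle inhibitor p27, read 7.48 and 6.81 in SupB15-MR and 9.63 in SupB15, a fall with a log2 fold change of -2.48 (SE 0.243, limma adjusted p = 5.36e-08). S1PR1, a receptor for lymphocyte exit from tissues, was also called lower, but it read 2.59 and 2.49 in SupB15-MR, below the filter at 3.47, and 3.97 in SupB15, so that it passed the filter only through SupB15 and the size of its fall is not known.

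**Figure D4:**
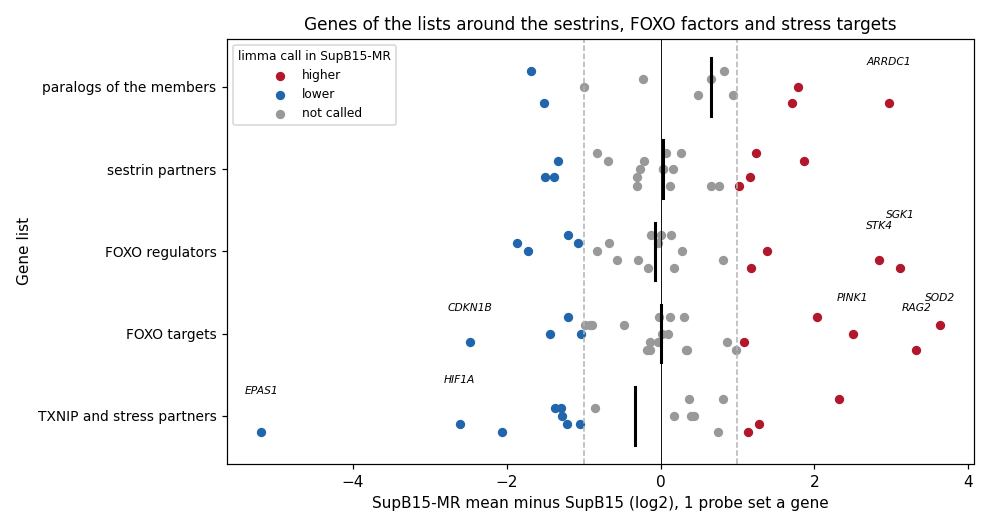
SupB15-MR mean minus SupB15 (log2, x axis) for each tested gene of the 5 lists (y axis), 1 point a gene, coloured by the limma call, with the median of each list as a black bar and dashed lines at 2-fold. Medians run from -0.34 for TXNIP and stress partners to 0.66 for the paralogs, and EPAS1 lies farthest from 0, at -5.19.

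The partners of TXNIP and the other stress genes had the lowest median of the lists, -0.34, with 3 of 18 tested called higher and 8 lower. EPAS1 and HIF1A, the oxygen-regulated subunits of the hypoxia-inducible factors, stood out. EPAS1 read 3.37 and 3.88 in SupB15-MR and 8.82 in SupB15, a log2 fold change of -5.19 (SE 0.227, limma adjusted p = 9.85e-13). The first of these values lies below the filter, so that the size of the fall is uncertain. Of its 3 probe sets, 2 were kept, only this one was lower by 2-fold or more, and the mean over both was -2.56. HIF1A, on its only probe set, read 8.05 and 7.71 in SupB15-MR and 10.49 in SupB15, a log2 fold change of -2.61 (SE 0.213, limma adjusted p = 4.64e-09). Both were called lower in SupB15-MR, as was CITED2, the inhibitor of HIF1A, on 2 of its 3 probe sets. Of the 12 stromal markers tested, 5 were called lower, 1 higher and 6 were not called, with a median of -0.22. ATF4, a stress factor that induces SESN2 and DDIT4, and DDIT3, which ATF4 also induces, were also called lower. The log2 fold changes of ATF4 and DDIT3 were -1.04 and -1.37. Both were singled out after their values were seen, and DDIT4 itself was not called. TXN, the thioredoxin that TXNIP inhibits, read 9.42 and 10.03 in SupB15-MR and 11.79 in SupB15 on its brightest probe set (-2.06), but its other probe set was at least 2-fold higher, and the mean over both was 1.04. MLXIP, the glucose-sensing factor that drives TXNIP, rose by 1.28, and MAPK8, a stress-activated kinase, by 2.32. MLXIP and MAPK8 each had 1 probe set at least 2-fold lower, and the means over all their probe sets were 0.61 and 0.73.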

How the data were processed

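Human SupB15-MR (2 arrays) and SupB15 (1 array) cells were measured on Affymetrix arrays after NuGEN Ovation labelling. The sources name more than one array type, and the 54675 probe sets are those of HG133plus2. The authors normalised and summarised probe values with RMA in apt-probeset-summarize, so that the deposited numbers are on a log2 scale. Precision is limited by the number of arrays.

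Probe sets were named from the platform annotation (41097 with 1 gene, 1801 with several, 11777 with none). Those that never exceeded the 20th percentile (3.47) in any array were removed (8641), and 46034 were kept. SupB15-MR was compared with SupB15 in limma 3.58.1 (R 4.3.3) with 1 residual degree of freedom and Benjamini-Hochberg adjustment over all kept probe sets. The variance prior (SD 0.169 on 17.1 degrees of freedom) came from probe sets whose SupB15-MR values differ, because the 18289 identical pairs pull it to an SD of 0.00102. The fit was also run on simulated data, with the spread drawn from this prior, equal in all arrays, and without identical values. Because these settings differ from the data, that run cannot show how reliable the calls are here. Alternatives were the prior from all probe sets, ANOVA, other scaling and filters, other probe sets for a gene, and leaving out a SupB15-MR array.

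The text names all 10 genes and, of each list, up to 2 rises and 2 falls, the largest among genes called and 2-fold in both SupB15-MR arrays, with TXN and FOXO1 as direct partners. ATF4 and DDIT3 lie outside this rule and were added after their values were seen. The genes and lists were chosen with earlier results of these data known. Some genes of the lists are not reported here.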

Additional observations from a re-analysis of the deposited data

How the results depend on the processing

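With the variance prior from all probe sets, calls fell to 3 higher and 3 lower among the probe sets of the 10 genes, to 4470 lower among all probe sets, and to 24 among the genes of the 5 lists, against 40 with the prior from differing probe sets; the identical SupB15-MR values pull that prior towards 0. A 1-way ANOVA of the 3 arrays with Benjamini-Hochberg adjustment called 0 higher and 0 lower among the 10 genes, 0 of all probe sets and 0 of the list genes; without adjustment (p of 0.05 or less, 2-fold) it gave 6778 of the 27745 probe sets it could test, 5 of them among the 21 of the 10 genes. Centring, quantile normalization and the other filters kept every count within 1.5 times. The difference of TXNIP probe set 201010_s_at, -0.23 over both arrays, ranged from -0.60 without SupB15-MR replicate 1 to 0.14 without replicate 2. That probe set stands for TXNIP, and the one with the highest mean over the 3 arrays gave 1.29. By that choice SESN3 had 4.06. The mean over the probe sets of FOXO3 was 1.03, and that of TP53INP1 was -0.997, where the probe set that represents it gave -4.05. No paired analysis was possible because SupB15 has 1 array and no replicate number. With 2 SupB15-MR arrays and 1 SupB15 array, the spread of SupB15 cultures is unknown, and signal near the filter limits the dim probe sets.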
